A study of Arabidopsis thaliana with 48 samples.

Results

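The genes described here are 150 Arabidopsis genes whose mean transcript level was higher on each day of early flower development than on the day before. They were chosen on measured levels: the 4 samples of a day were averaged as counts-per-million (CPM, a gene's count relative to the sample's total count), and a gene was kept if its mean went up at all 5 daily steps between day 0 and day 5. It also had to average 5 CPM or more on day 5 and stay under 2 times its day 4 mean on day 5, with all 4 day 5 samples above all 4 day 0 samples, a separation that 3467 of the 19747 genes tested showed. Of 23069 genes in the table, 472 met these conditions, and the 150 with the largest log2 ratio of day 5 over day 0 (0.5 CPM added to each mean) are the members. All their daily levels were used in the choice, so these levels are given as a description, without a test.

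The samples came from inflorescences of Col-0 plants that carried pAP1:AP1-GR in the ap1 cal double mutant. Every group shared this genotype. In ap1 cal plants inflorescence meristems keep multiplying into a cauliflower-like head. The fusion of APETALA1 (AP1), a MADS-domain floral meristem factor, to the hormone-binding part of the glucocorticoid receptor is driven by the AP1 promoter and enters the nucleus when dexamethasone is given, so that many flowers start together. Heads were drenched with a 2 µM dexamethasone solution, repeatedly over the course, and the groups were days 5, 4, 3, 2 and 1 after induction set against day 0 or the day before, with 4 biological replicates a day. No course without dexamethasone was used here, so days after induction, plant age and repeated drenching cannot be told apart, and the sources used here do not give the hour of harvest. In whole inflorescences, more cells of a type and more RNA per cell cannot be told apart either.

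In this system floral meristems form during the days after AP1 activation and then lay down sepals, petals, stamens and carpels. The organ types are specified by MADS-domain proteins, which act in complexes with SEPALLATA proteins, and later genes give the organs their polarity, growth, epidermis and chemical defences.

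The 24 samples, each the sum of 2 sequencing runs, held 26.6 M to 28.0 M counts and 21672 to 22156 detected genes. The library of day 5 replicate 1 stood apart: it lay at 45.29 on the third principal component of log2(CPM + 0.5), against -14.14 to -6.06 for the other day 5 samples, and its summed level of 13 handling and heat stress markers was 1054 CPM, against 332 to 655 CPM in those samples. Of the 1054 CPM, 672 CPM came from TCH3, which had 112 to 190 CPM in the other day 5 samples. WRKY40, WRKY33, STZ, ERF5 and ERF6 were also at their highest of day 5 in this library. HSP70, HSP17.6II, HSP101 and TCH2 went the other way and were at their lowest of day 5. Over all samples the sum of the 13 markers ran between 145 and 1054 CPM, and no marker was at 0 throughout a day. The sum of 8 leaf and photosynthetic markers lay between 3212 and 6253 CPM, with its highest value on day 0. Tapetum and pollen wall markers, 14 of them in the table, summed to 29.6 to 178 CPM, with high libraries at day 3 replicate 4 (178 CPM), day 2 replicate 4 (105 CPM), day 5 replicate 4 (103 CPM) and day 1 replicate 3 (97.5 CPM), and 4 of them were at 0 throughout day 0. Mature pollen markers, 8 in the table, summed to 11.8 to 25.6 CPM, most of it from GEX2 alone (9.67 to 23.4 CPM). None of these markers is a member, and their part in the members' levels was not tested.

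Promoters of some genes that the results turn on are shown first, those of 3 of the 9 endoplasmic reticulum (ER) body genes and of a pair of abscisic acid genes, picked because they hold a G-box or an L1 box. The windows of the other 6 ER body genes (TSA1, MEB1, MEB2, PBP1, JAL34 and MVP1) held neither and are not printed. Each is the 300 bases before the annotated start of the gene in RefSeq's TAIR10.1 annotation, read on the gene's own strand, with capitals marking the motifs found. The G-box, CACGTG, is a hexamer recognised by many basic helix-loop-helix and bZIP factors. The L1 box, TAAATGCA or TAAATGTA or their reverse complements, is recognised by homeodomain factors of the epidermis. NAI1 lies at chr2:9684262-9684561, plus strand, NAI2 at chr3:5402654-5402953, minus strand, AT1G54010 at chr1:20160865-20161164, minus strand, ABI5 at chr2:15207637-15207936, minus strand and AFP3 at chr3:11384146-11384445, minus strand.
NAI1: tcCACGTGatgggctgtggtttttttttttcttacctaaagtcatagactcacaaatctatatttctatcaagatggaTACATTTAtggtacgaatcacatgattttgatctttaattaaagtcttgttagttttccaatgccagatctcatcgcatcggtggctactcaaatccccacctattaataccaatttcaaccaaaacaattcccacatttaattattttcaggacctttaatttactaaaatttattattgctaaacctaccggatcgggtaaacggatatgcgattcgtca
NAI2: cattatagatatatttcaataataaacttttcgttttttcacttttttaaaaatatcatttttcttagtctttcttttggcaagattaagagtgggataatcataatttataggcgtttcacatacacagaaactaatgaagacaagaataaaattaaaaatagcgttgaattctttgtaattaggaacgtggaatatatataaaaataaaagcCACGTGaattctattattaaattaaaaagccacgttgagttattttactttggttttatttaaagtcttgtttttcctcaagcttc
AT1G54010: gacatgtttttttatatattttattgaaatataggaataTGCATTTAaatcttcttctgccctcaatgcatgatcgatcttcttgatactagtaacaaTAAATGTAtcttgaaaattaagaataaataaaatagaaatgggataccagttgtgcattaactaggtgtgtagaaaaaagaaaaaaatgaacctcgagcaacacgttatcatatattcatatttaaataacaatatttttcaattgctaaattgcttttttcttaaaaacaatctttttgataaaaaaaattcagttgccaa
ABI5: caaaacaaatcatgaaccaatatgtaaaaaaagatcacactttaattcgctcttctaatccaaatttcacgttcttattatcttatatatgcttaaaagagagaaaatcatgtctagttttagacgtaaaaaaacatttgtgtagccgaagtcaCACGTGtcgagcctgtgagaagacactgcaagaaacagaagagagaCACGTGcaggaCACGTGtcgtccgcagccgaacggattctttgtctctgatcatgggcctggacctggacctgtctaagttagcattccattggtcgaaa
AFP3: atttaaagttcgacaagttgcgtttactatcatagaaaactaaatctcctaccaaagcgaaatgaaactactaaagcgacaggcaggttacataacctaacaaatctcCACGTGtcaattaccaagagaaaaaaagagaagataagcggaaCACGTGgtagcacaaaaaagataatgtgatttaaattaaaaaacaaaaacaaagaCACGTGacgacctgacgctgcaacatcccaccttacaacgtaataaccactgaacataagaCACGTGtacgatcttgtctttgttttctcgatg

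The NAI1 window held a G-box starting 298 bases before the gene and an L1 box at 222 bases. The NAI2 window held a G-box at 86 bases, and that of AT1G54010 held L1 boxes at 261 and 202 bases. ABI5 had G-boxes at 146, 100 and 89 bases, and AFP3 had them at 192, 149, 94 and 33 bases. Windows with 3 or more G-boxes were found for 23 of 15281 genes with a day 5 mean of 5 CPM or more (0.151%), and ABI5 and AFP3 were the members among them. A match is a string of letters and not a shown binding site.

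The members' levels spanned a wide range. Their log2 ratio of day 5 over day 0 had a median of 2.3, with the GDSL lipase-like gene AT1G54010 at the top (5.82) and the zinc-finger homeodomain gene HB30 at the bottom (1.56). Of the 150, 97 were higher by 4-fold or more and 31 by 8-fold or more. The median member stood at 32.5 CPM on day 5 and 5.07 CPM on day 0, and the members together took 10591 CPM on day 5 and 2235 CPM on day 0. On day 0, 16 members were under 1 CPM. Per kilobase of transcript, the highest day 5 levels were those of the dehydroascorbate reductase gene DHAR1 (1364 CPM per kb), the metallothionein gene MT1A (485, on a transcript of 138 bases that is wholly contained in AT1G07590, so uncertain), the nitrilase gene NIT1 (333), the glycine-rich protein gene GRP3S (244) and the O-methyltransferase gene OMT1 (209).

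Members close to the limits show how fine these limits are. At the level limit, the laccase gene LAC1 averaged 5.08 CPM on day 5 and the lectin gene JAL34 5.22 CPM, while PRE1 (4.95 CPM) and AT2G38250 (4.92 CPM) fell outside. At the limit on the last step, AT1G20070 (2.00 times day 4, just under the limit) and CEP3 (1.99) were inside, and the nitrate reductase gene NIA2 (2.00, just over it) and AT5G52050 (2.02) outside. The polyol transporter gene PMT5 and NAC001 had a smallest daily ratio of 1.00 and were kept, while NGA1 (0.999) and NAC102 (0.995) were left out. At the end of the ranking, ATAF1, DRB5 and HB30 had log2 ratios of 1.56, against 1.55 for AT4G29020 and 1.54 each for AT1G52565 and MSS3 just outside. The lowest day 5 sample was 1.32 times the highest day 0 sample for GRP5 and 1.34 times for PBP1, and the sulfate-assimilation gene APR1 (0.973) was the 1 gene in the rank range that this condition removed.

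Taken over all members, the rise was spread over the 5 steps, although single genes took up to 55.7% of it in 1 step. The rule asked for a rise at every step and for day 5 under 2 times day 4. Part of this spread is therefore set by the choice of members. The median share of a member's day 0 to day 5 rise, on the log2(CPM + 0.5) scale, was 20% at the step to day 1, 20.7% to day 2, 21.7% to day 3, 14.6% to day 4 and 20% to day 5. The largest step fell on day 1 in 32 members, on day 2 in 39, on day 3 in 27, on day 4 in 11 and on day 5 in 41. Over 50% of the rise was complete by day 2 in 48 members, and the last step took over 40% in 14.

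**Figure D1:**
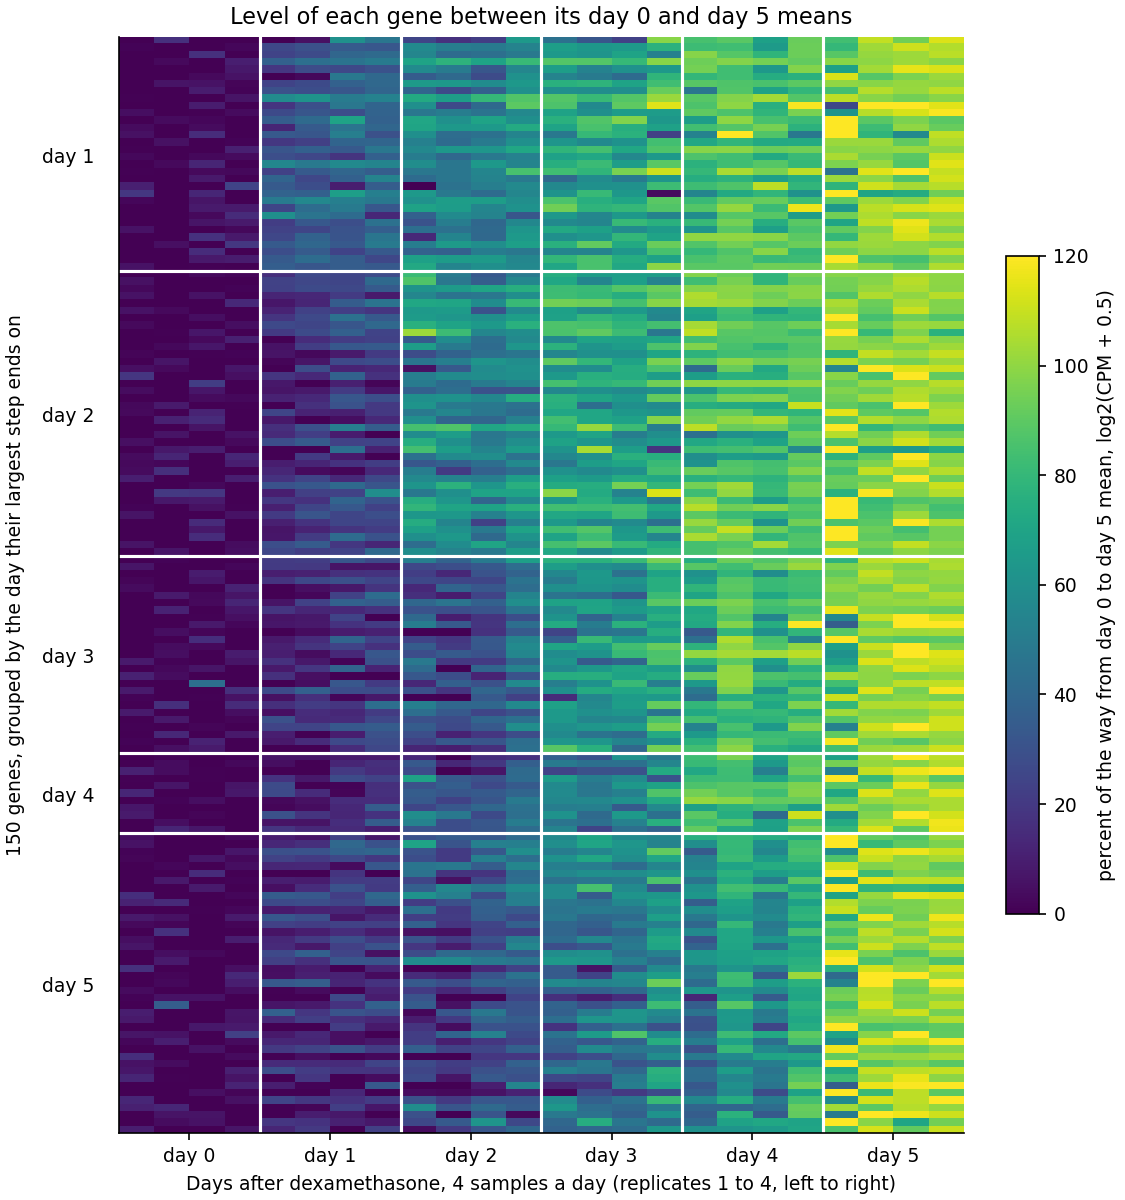
Level of each of the 150 genes (rows, grouped by the day on which their largest step ends) in each of the 24 samples (columns, day 0 to day 5, replicates 1 to 4 from left to right), as percent of the way from the gene's day 0 mean to its day 5 mean in log2(CPM + 0.5), with colours limited to 0 to 120. Colours brighten day by day in all 5 blocks, and the first column of day 5, replicate 1, departs from its neighbours in many rows.

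**Figure D2:**
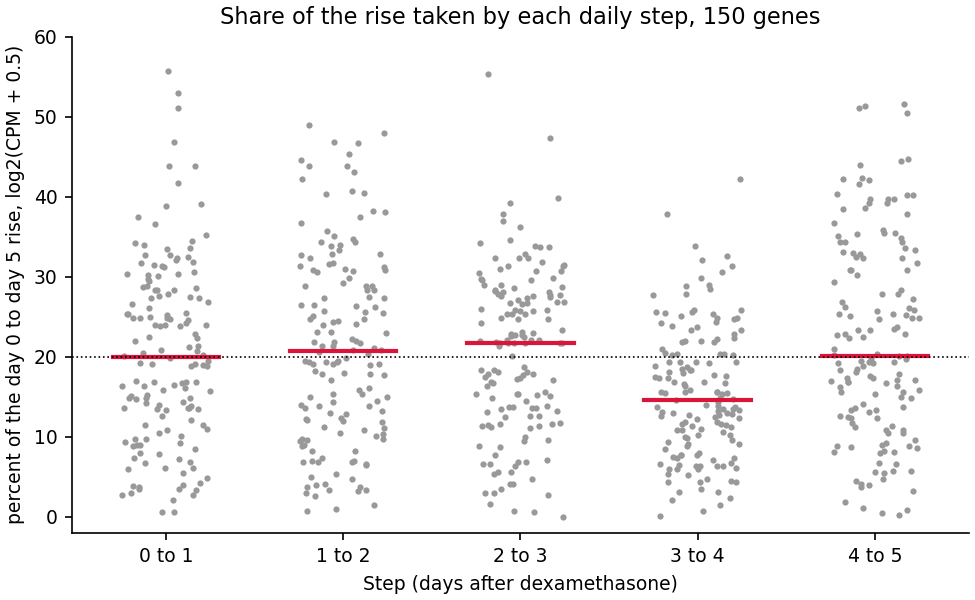
Share of the day 0 to day 5 rise, in percent of the log2(CPM + 0.5) difference, that each daily step took; grey points are the 150 genes, red bars the medians and the dotted line an even share of 20 percent. Medians lie between 14.6 and 21.7 percent, with single genes up to 55.7 percent.

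Few members separated from the day before at every step. All 4 samples lay above all 4 of the day before for 81 members at day 1, where the same held for 12.8% of the 19747 genes tested. The counts were 71 at day 2 (4.63% of genes), 63 at day 3 (3.57%), 40 at day 4 (3.80%) and 48 at day 5 (6.19%). These steps were used in choosing the members, so nothing is read from the excess. Of the 5 steps, 0 were free of overlap in 19 members, 1 in 32, 2 in 46, 3 in 36, 4 in 14 and all 5 in 3. Over all genes tested, 0.977% had 3 or more such steps and 0.0152% had all 5. The 3 genes with all 5 were members, namely the floral MADS gene SEP3, the squalene epoxidase gene SQE6 and the NAC-domain gene NAC032.

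SEP3 had 10.4, 16.0, 15.7 and 14.4 CPM on day 0 and 23.2, 24.6, 30.5 and 32.4 CPM on day 1. It stood at 54.6, 53.0, 47.2 and 53.0 CPM on day 2 and at 67.9, 70.6, 59.3 and 78.6 CPM on day 3. On day 4 it had 88.2, 84.6, 82.4 and 89.6 CPM, and on day 5 it had 111, 108, 113 and 111 CPM. No sample of a later day reached down into the day before it, and the spread within a day was narrowest on day 5 (SD 2.18 CPM, n = 4). NAC032, a stress-related NAC factor, averaged 9.97 CPM on day 5 and 1.36 CPM on day 0. SQE6 had 27.5, 14.2, 13.0 and 18.1 CPM on day 5, against 1.54, 1.11, 1.24 and 1.49 CPM on day 0, and its day 5 replicate 1 was the highest sample.

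The 4 members with the smallest range of their 5 log2 steps were the glycine-rich protein gene AT4G21620, the indeterminate-domain gene IDD7, the plantacyanin gene ARPN and the C2-domain gene EHB1, whose largest steps took 25.6%, 26.7%, 24.8% and 25.7% of their rise. The 4 members in which a single step took the largest share were TRY (55.7% at day 1), WOX12 (55.4% at day 3), RGL2 (53.0% at day 1) and AT5G54170 (51.6% at day 5). TRY encodes a small MYB protein that represses trichome fate in neighbouring cells. It had 12.9, 10.6, 9.79 and 10.7 CPM on day 5, against 1.16, 1.04, 1.01 and 1.35 CPM on day 0, and already 4.55, 4.92, 3.82 and 4.12 CPM on day 1. WOX12, a WUSCHEL-related homeobox gene, had 7.58, 6.52, 4.25 and 8.10 CPM on day 3, against 2.99, 2.89, 3.13 and 4.46 CPM on day 2. Those ranges overlapped.

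To read the steps in samples that the choice had not used, the rule was applied to 3 replicate numbers and the resulting 150 genes were read in the samples of the number left out. The members so chosen shared 104, 109, 112 and 116 genes with the 150 when replicate 1, 2, 3 or 4 was left out, and 61 of the 150 were chosen in all 4 cases. In the left-out samples the day's value was above that of the day before in 80.3%, 86.5%, 89.9% and 88.1% of the steps, against 50.1%, 48%, 50.6% and 47.5% over all 15286 genes with a day 5 mean of 5 CPM or more. In all, 2586 of 3000 steps went up (86.2%, against 49.1% for all genes). All 5 steps went up in 42, 67, 91 and 73 of 150 genes, or 28.0%, 44.7%, 60.7% and 48.7%, against 1.22%, 1.77%, 3.85% and 2.71% of all genes. Day 5 was above day 0 in 150 of 150 genes each time, against 43.2%, 51%, 48.5% and 40.7% of all genes. The set of all genes was not matched for the size of the rise. In the left-out samples the median log2 ratio of day 5 over day 0 was 2.04 to 2.44 in the chosen genes. It was -0.08 to 0.009 in all genes, so the contrast does not separate a rise at every step from a large rise. Replicate numbers only name samples here, so a left-out course joins samples that need not come from the same plants.

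**Figure D3:**
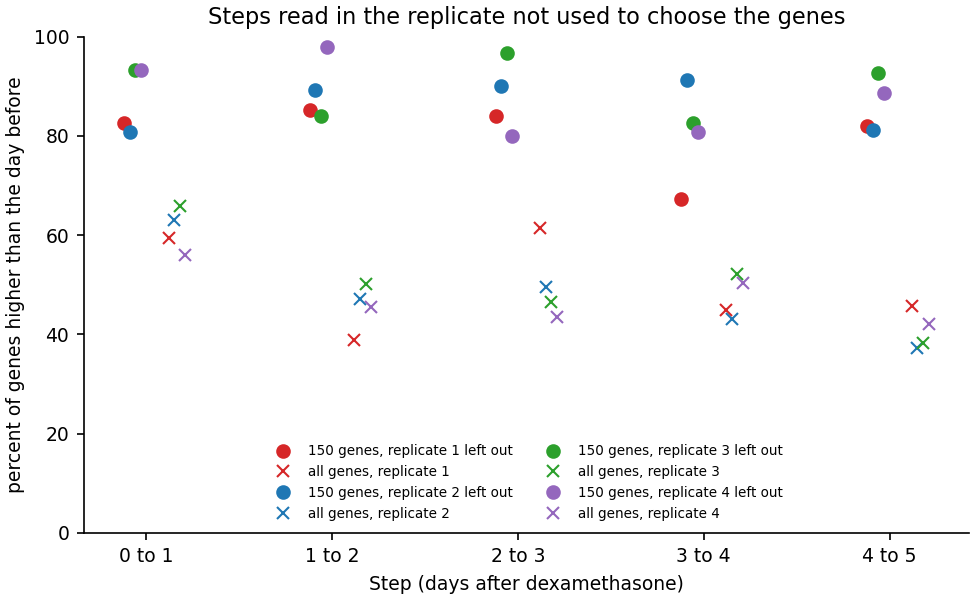
Percent of genes higher than the day before at each daily step, read in the replicate that was left out when the 150 genes were chosen (circles) and, for the same samples, over all genes with a day 5 mean of 5 CPM or more (crosses). Circles lie between 67.3 and 98.0 percent and crosses between 37.3 and 65.8 percent.

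The lowest circle was the step to day 4 in replicate 1 (101 of 150 genes, 67.3%). Genes that no such choice recovered were the sugar transporter gene SWEET4, AT5G23510, the cysteine protease gene CEP3, AT5G54170 and WOX12.

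Regulators of flowers and organs made up 17 of the 150, a group put together after the members were known. Their summed level was 954 CPM on day 5 and 202 CPM on day 0, with a median log2 ratio of 2.53, beside 2.3 for all members. None of the 17 had its largest step at day 5, whereas 7 had it at day 1. The last step took a median of 11.4% of their rise, beside 20% over all members.

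The SEPALLATA genes SEP1, SEP2 and SEP3 encode the MADS-domain partners that the organ identity proteins need. SEP2 had 200, 204, 211 and 206 CPM on day 5, against 34.6, 31.2, 30.5 and 41.4 CPM on day 0. SEP1 had 62.6, 63.7, 62.0 and 60.4 CPM on day 5, against 18.2, 20.9, 16.2 and 24.7 CPM on day 0. Per kilobase their day 5 levels were 137 CPM for SEP2, 87.5 CPM for SEP3 and 40.5 CPM for SEP1. SEP1 and SEP2 each passed 4 of 5 steps without overlap, and day 5 replicate 1 lay within the range of the other day 5 samples for SEP1 and SEP3 and just below it for SEP2.

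APETALA2 (AP2), which acts in sepal and petal identity, took 51.1% of its rise on day 1. It had 117, 139, 129 and 154 CPM on day 5, against 35.1, 30.8, 37.3 and 33.3 CPM on day 0, and 67.4, 73.7, 69.3 and 65.9 CPM on day 1. CRABS CLAW (CRC), a YABBY gene of carpels and nectaries, had 34.9, 40.6, 37.4 and 44.5 CPM on day 5, against 2.29, 4.60, 3.94 and 4.41 CPM on day 0. On days 1, 2 and 3 the highest CRC sample was replicate 4, with 10.4, 13.7 and 26.0 CPM, and the other 3 samples of those days lay between 2.11 and 11.3 CPM. The same libraries at days 2 and 3 were high in tapetum markers, whose part was not tested.

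GRF8, a growth-regulating factor, had 34.8, 43.7, 45.8 and 45.7 CPM on day 5, against 7.36, 7.91, 8.37 and 7.40 CPM on day 0, and took its largest share (33.8%) at day 4. The B3-domain genes ABS2 and REM22 had the highest ratios of the group. ABS2, a relative of the NGATHA genes, averaged 12.8 ± 1.67 CPM on day 5 and 0.355 ± 0.0873 CPM on day 0 (SD, n = 4 each). REM22 averaged 36.4 ± 5.57 CPM on day 5 and 2.28 ± 0.802 CPM on day 0. REM22 reached 35.6 CPM by day 4, and without day 5 replicate 1 its day 5 mean was 34.8 CPM, below day 4.

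Other regulators included genes of organ sides, organ margins and anthers. KAN3, a KANADI gene of the abaxial organ side, averaged 8.79 CPM on day 5 and 1.57 CPM on day 0. PRS, the WOX gene of lateral organ margins, averaged 20.2 CPM on day 5 and 3.09 CPM on day 0. TGA9, a bZIP gene needed for anther development together with TGA10, averaged 9.71 CPM on day 5 and 0.570 CPM on day 0. The BEL1-like gene BLH2 took 44.6% of its rise at day 2 and 0.460% at day 5, with means of 34.7 CPM on day 5 and 4.96 CPM on day 0.

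**Figure D4:**
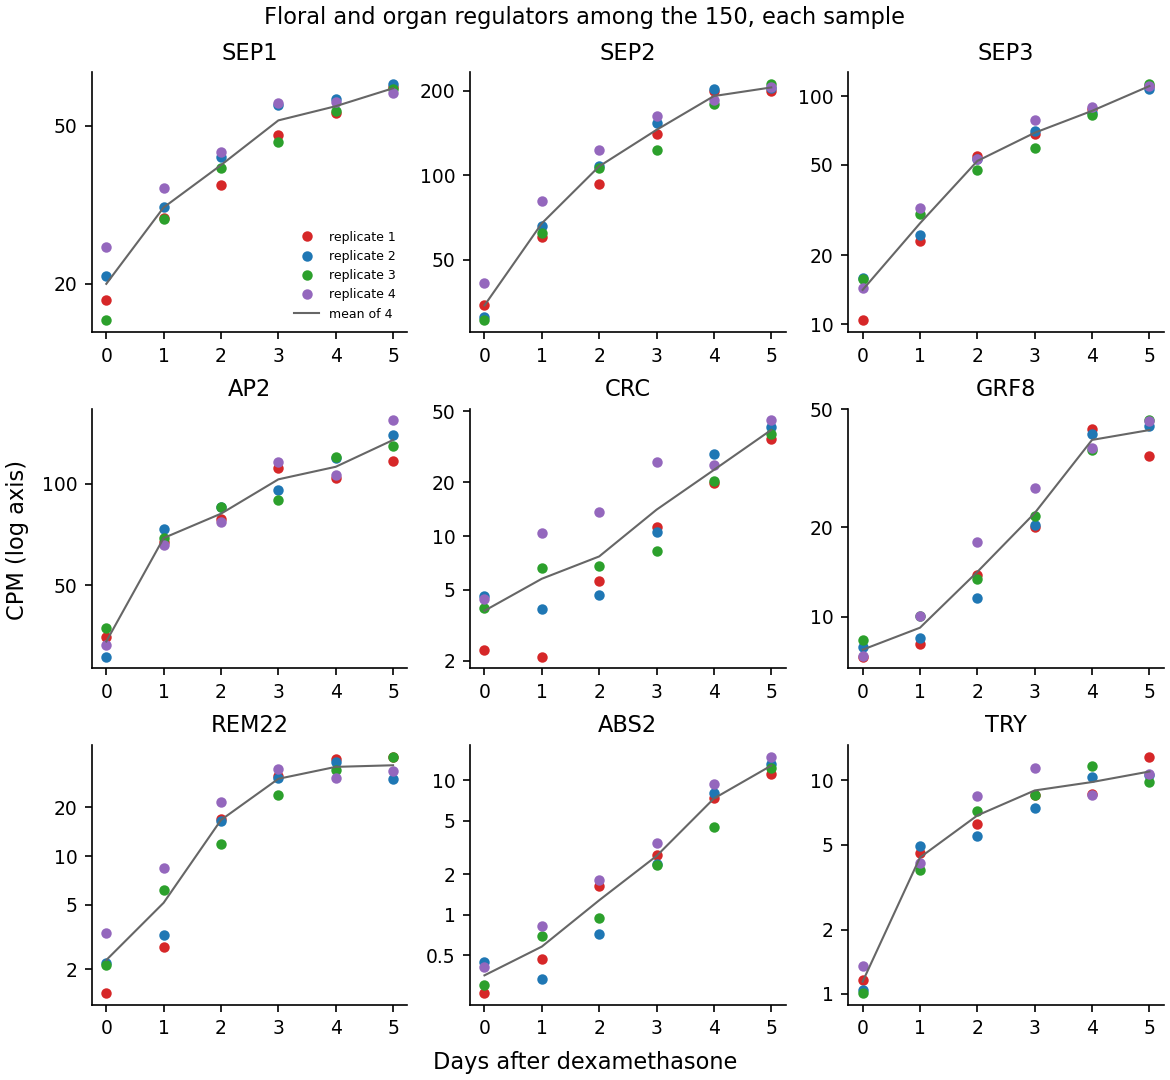
Level in CPM (log axis, a different range in each panel) of 9 floral and organ regulators among the 150 in each sample, against days after dexamethasone; points are samples coloured by replicate number and lines join the means of 4. SEP3 climbs without overlap between neighbouring days, TRY and AP2 take their largest step at day 1, and replicate 4 is the highest CRC sample on days 1 to 3.

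The ER body genes formed a group of 9. ER bodies are spindle-shaped compartments of the endoplasmic reticulum in Arabidopsis and its relatives, which store beta-glucosidases that can activate defence compounds when tissue is damaged. The bHLH factor NAI1 is required for them in seedlings, NAI2 and TSA1 are related structural proteins, MEB1 and MEB2 sit in their membrane, and lectins such as PBP1 and GDSL lipase-like proteins join the complex of the beta-glucosidase PYK10. The 9 members were NAI1, NAI2, TSA1, MEB1, MEB2, PBP1, JAL34, the GDSL gene MVP1 and AT1G54010, a GDSL gene of the same cluster. Together they summed to 1016 CPM on day 5 and 152 CPM on day 0.

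NAI1 had 3.72, 4.53, 6.38 and 4.82 CPM on day 0, 5.59, 6.32, 9.69 and 7.49 CPM on day 1 and 7.47, 6.83, 8.89 and 12.7 CPM on day 2. It had 9.33, 20.6, 15.7 and 15.9 CPM on day 3, 10.7, 31.7, 22.2 and 12.6 CPM on day 4 and 49.3, 24.6, 23.4 and 23.8 CPM on day 5. No step of NAI1 was free of overlap, although day 5 and day 0 did not overlap, and its highest value was that of day 5 replicate 1.

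AT1G54010 had 2.96, 3.34, 3.11 and 3.14 CPM on day 0, 7.81, 7.99, 12.3 and 9.63 CPM on day 1 and 26.7, 15.8, 24.2 and 51.1 CPM on day 2. It had 72.9, 73.5, 87.1 and 151 CPM on day 3, 68.3, 139, 112 and 159 CPM on day 4 and 76.4, 246, 277 and 219 CPM on day 5. The steps to days 1, 2 and 3 were free of overlap. The step to day 5 was not, since replicate 1 stood near the day 4 samples.

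NAI2 had 67.4, 198, 254 and 182 CPM on day 5, against 33.7, 30.3, 34.9 and 34.8 CPM on day 0. TSA1 had 145, 394, 417 and 370 CPM on day 5, against 51.5, 44.4, 49.6 and 57.7 CPM on day 0. PBP1 had 14.4, 74.3, 102 and 67.0 CPM on day 5, against 8.07, 8.69, 10.7 and 9.08 CPM on day 0. In each of these genes day 5 replicate 1 was the lowest of its day by far. The same sample was the lowest in 8 of the 9 and the highest for NAI1.

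The other 4 members also had higher values on day 5 than on day 0. MEB1 averaged 52.7 ± 10.3 CPM on day 5 and 6.79 ± 0.984 CPM on day 0, and MEB2 averaged 14.9 ± 1.34 CPM on day 5 and 2.82 ± 0.440 CPM on day 0 (SD, n = 4 each). MEB2 stood at 7.82 CPM on day 4, so its largest step came last. MVP1 averaged 137 ± 43.1 CPM on day 5 and 40.6 ± 0.781 CPM on day 0. JAL34 averaged 5.22 ± 1.25 CPM on day 5 and 0.664 ± 0.103 CPM on day 0, but 18.4% of its locus is overlapped on the opposite strand by the lectin gene JR1 (838 CPM on day 5), so its reads are uncertain where strand was not used in counting.

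The largest step fell on day 3 in 4 of the 9 members, on day 1 in 3 and on day 5 in 2. The step to day 4 took a median of 4.72% of their rise, beside 14.6% over all members. On days 2 and 3, replicate 4 was the highest sample of NAI2, TSA1, PBP1 and AT1G54010, in the libraries with high tapetum markers, whose part was not tested.

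**Figure D5:**
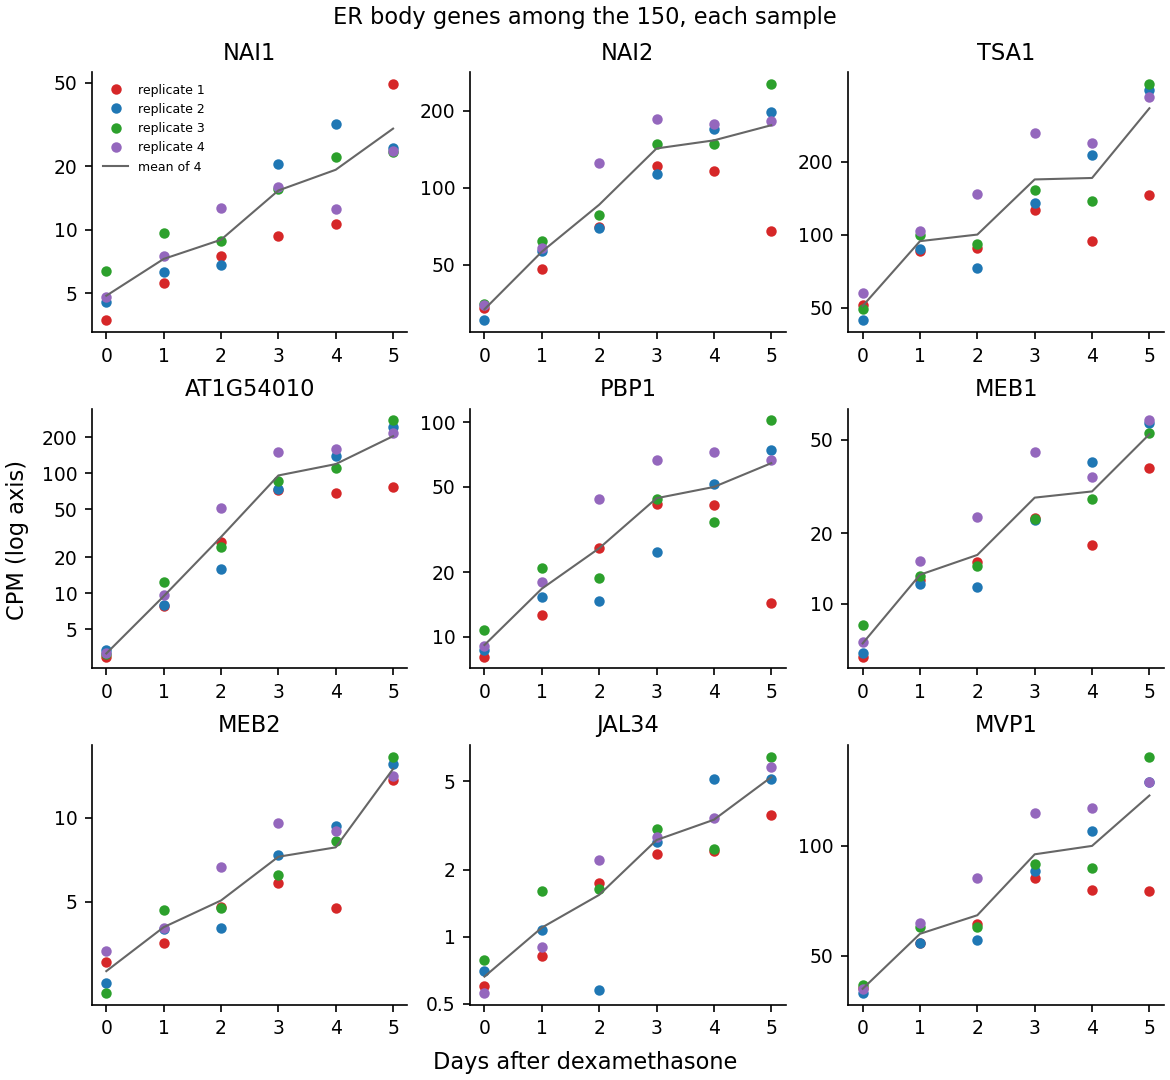
Level in CPM (log axis, a different range in each panel) of the 9 ER body genes among the 150 in each sample, against days after dexamethasone; points are samples coloured by replicate number and lines join the means of 4. Day 5 replicate 1 (red) is lowest in 8 panels and highest for NAI1, and the means climb little between day 3 and day 4 in most panels.

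These genes varied together among samples of the same day more than other members did. After the day mean was removed from log2(CPM + 0.5), the median Pearson r over the 36 pairs of the 9 genes was 0.705 in 24 samples, against 0.157 over all pairs of members and 0.026 over all pairs of 15229 genes with a mean of 5 CPM or more. It was 0.734 without day 5 replicate 1 and 0.782 on days 0 to 4. In 24 samples the medians of the other role groups were 0.479 (cuticle), 0.375 (phenylpropanoid and lignin), 0.332 (floral regulators), 0.193 (redox and detoxification), 0.184 (hormone) and 0.03 (sugar). All these groups were put together after the members were known. The points share library and depth, and the values are a description. NAI1 varied with the other ER body members only in part. Over all 24 samples its r was -0.10 with NAI2, 0.039 with TSA1, 0.075 with AT1G54010, -0.228 with PBP1 and -0.091 with MVP1. It was higher with MEB1 (0.326), MEB2 (0.459) and JAL34 (0.341). Without day 5 replicate 1 these values were, in the same order, 0.269, 0.337, 0.387, 0.05, 0.229, 0.509, 0.555 and 0.538. On days 0 to 4 they were 0.492, 0.458, 0.518, 0.190, 0.388, 0.571, 0.594 and 0.616.

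BGLU18, JR1, JAL23, PYK10, JAL31 and GLL22, ER body genes outside the 150, each missed at least 1 condition of the rule. BGLU18, a leaf ER body beta-glucosidase and far more abundant than any member, had 844, 3229, 3415 and 2853 CPM on day 5, against 324, 455, 379 and 353 CPM on day 0. It was left out because its day 4 mean (1507 CPM) lay below day 3 (1718 CPM). JR1 averaged 838 CPM on day 5, 2.26 times day 4, and JAL23 averaged 409 CPM on day 5, 2.3 times day 4. The JAL23 mean also fell at day 2 (102 CPM, against 117 CPM on day 1) and at day 4 (177 CPM, against 197 CPM on day 3). PYK10 had 1.89, 11.9, 19.7 and 10.3 CPM on day 5, with replicate 1 below the day 0 mean of 3.93 CPM. JAL31 averaged 3.55 CPM on day 5, under the limit of 5 CPM. The GLL22 mean fell at day 4 (10.8 CPM, against 11.3 CPM on day 3).

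Hormone genes among the members numbered 10, with a sum of 1189 CPM on day 5 and 319 CPM on day 0. AT5G13370, a GH3 gene of the family that joins amino acids to hormones, had the second-largest ratio of all members (4.94 on the log2 scale). It had 22.2, 21.6, 27.8 and 23.4 CPM on day 5, against 0.225, 0.223, 0.375 and 0.336 CPM on day 0. The intermediate samples were uneven, with 12.4 CPM in day 2 replicate 1 and 1.93 to 3.87 CPM in the other day 2 samples. DFL2, another GH3 gene, averaged 152 ± 12.4 CPM on day 5 and 30.2 ± 7.56 CPM on day 0, with 42.4% of its rise in the last step.

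ABI5, the bZIP factor of abscisic acid responses in seeds, and AFP3, a member of the family of ABI5-binding proteins, are the genes whose G-box-rich promoters are printed above. ABI5 had 28.8, 21.2, 27.3 and 26.7 CPM on day 5, against 1.99, 1.52, 1.69 and 2.06 CPM on day 0, and 40.4% of its rise came at day 2. AFP3 averaged 18.0 ± 4.1 CPM on day 5 and 2.85 ± 0.586 CPM on day 0, with its largest share, 31.2%, also at day 2. ABI5 passed 4 steps without overlap and AFP3 passed 3.

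In the gibberellin pathway the members were RGL2, a DELLA repressor, GID1B, a receptor, and CYP714A1, an enzyme that inactivates gibberellins. RGL2 had 26.3, 28.8, 22.7 and 35.8 CPM on day 5, against 4.47, 5.12, 6.08 and 3.92 CPM on day 0. Its day 1 samples already had 13.0, 11.5, 13.4 and 12.7 CPM, and its day 2 samples 13.8, 11.3, 15.1 and 12.7 CPM, so day 2 added little to day 1. GID1B averaged 50.5 ± 11.7 CPM on day 5 and 16.1 ± 1.07 CPM on day 0, and CYP714A1 averaged 49.6 ± 10.3 CPM on day 5 and 16.0 ± 1.94 CPM on day 0. Without day 5 replicate 1 neither exceeded its day 4 mean: GID1B then had 44.8 CPM on day 5 and 46.8 CPM on day 4, and CYP714A1 44.4 CPM on day 5 and 44.8 CPM on day 4.

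Among auxin genes, the Aux/IAA repressor gene IAA2 had 47.9, 24.5, 28.6 and 24.8 CPM on day 5, against 6.64, 7.65, 5.96 and 6.58 CPM on day 0. NIT1, a nitrilase that can release auxin from a nitrile precursor, averaged 659 ± 184 CPM on day 5 and 196 ± 23.8 CPM on day 0. IAR3, which frees auxin and jasmonate from amino acid conjugates, averaged 151 ± 22.8 CPM on day 5 and 44.9 ± 2.24 CPM on day 0. Day 5 replicate 1 was the highest sample of its day in 7 of the 10 hormone genes.

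Sugar genes numbered 7: the transporters SWEET4, MSS1 and PMT5, the invertases ATBFRUCT1, ATBETAFRUCT4 and AT1G62660, and the sucrose synthase SUS3. MSS1, a hexose transporter, had 52.0, 19.5, 30.5 and 23.0 CPM on day 5, against 3.38, 3.19, 3.38 and 3.29 CPM on day 0. PMT5 had 465, 96.0, 93.0 and 104 CPM on day 5, against 38.4, 45.2, 46.3 and 34.8 CPM on day 0. Its day 4 samples had 116, 118, 123 and 83.4 CPM, so its membership rests on day 5 replicate 1. The cell wall invertase gene ATBFRUCT1 averaged 34.2 ± 12.7 CPM on day 5 and 5.18 ± 1.16 CPM on day 0, and the vacuolar ATBETAFRUCT4 averaged 96.4 ± 9.99 CPM on day 5 and 23.3 ± 1.93 CPM on day 0.

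The cuticle group held 7 genes, which sum to 1176 CPM on day 5 and 275 CPM on day 0. CER1, needed for the alkanes of cuticular wax, had 368, 605, 514 and 604 CPM on day 5, against 157, 117, 96.9 and 133 CPM on day 0. Little of its rise came on the first days, with 2.71% of the rise at day 1 and 4.77% at day 2, and 40.2% came at day 5. Its neighbour AT1G02190, a gene of the same family, ran on another schedule. It had 182, 220, 248 and 209 CPM on day 5, against 13.9, 12.4, 12.2 and 13.4 CPM on day 0, with 40.5% of the rise at day 2 and 1.87% at day 5. The other members included LACS2, an acyl-CoA synthetase of cutin synthesis (260 CPM on day 5, 87.0 CPM on day 0), and the lipid transfer gene LTPG2 (110 CPM on day 5, 33.3 CPM on day 0). The rest were the elongase gene KCS13 (17.7 CPM on day 5, 2.41 CPM on day 0), CYP96A1 (13.1 CPM on day 5, 3.59 CPM on day 0) and MYB30, a regulator of very-long-chain fatty acid synthesis (37.9 CPM on day 5, 10.2 CPM on day 0).

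Phenylpropanoid and lignin genes numbered 6, and day 5 replicate 1 was the lowest day 5 sample in all 6. OMT1, a methyltransferase of lignin and flavonol synthesis, had 195, 391, 274 and 392 CPM on day 5, against 71.2, 68.0, 44.2 and 71.7 CPM on day 0. ELI3-2, a cinnamyl alcohol dehydrogenase family gene, had 4.23, 13.7, 24.1 and 16.2 CPM on day 5, against 0, 0.0371, 0 and 0.0374 CPM on day 0. The peroxidase gene AT4G16270 had 10.1, 22.0, 13.9 and 25.2 CPM on day 5, against 0.225, 0.965, 0.225 and 0.336 CPM on day 0. Its high samples on earlier days were day 1 replicate 3 (4.84 CPM), day 2 replicate 4 (5.62 CPM) and day 3 replicate 4 (16.0 CPM), and the other samples of days 1 to 3 lay at or below 3.11 CPM. Those 3 libraries also had the highest tapetum marker sums of their days, and the part of tapetum cells in this gene's level was not tested. Another gene covers 61.9% of its locus on the opposite strand. CAD1, CAD5 and LAC1 completed the group.

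Redox and detoxification genes numbered 11 and had the largest sum, 2074 CPM on day 5 and 426 CPM on day 0, of which DHAR1 gave 1244 CPM on day 5 and 212 CPM on day 0. DHAR1, which regenerates ascorbate, had 681, 1531, 1381 and 1381 CPM on day 5, against 206, 243, 183 and 215 CPM on day 0. The glutathione transferase gene GSTU4 averaged 9.95 ± 1.68 CPM on day 5 and 0.0562 ± 0.0650 CPM on day 0. The aldo-keto reductase gene AKR4C8 averaged 53.7 ± 16.8 CPM on day 5 and 3.06 ± 0.205 CPM on day 0. UGT73B5, a glucosyltransferase induced by stress, had 42.5, 9.35, 13.7 and 8.58 CPM on day 5, against 1.13, 1.19, 1.46 and 0.934 CPM on day 0, and without replicate 1 its day 5 mean (10.5 CPM) was under that of day 4 (12.6 CPM). It also shares 36.8% of its locus with UGT73B4 on the same strand, so its reads are uncertain.

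Members with high ratios outside these groups covered varied functions. The light-signalling bHLH gene HFR1 averaged 12 CPM on day 5 and 0.365 CPM on day 0, and the nitrate transporter gene NRT1.8 33.7 CPM on day 5 and 2.08 CPM on day 0. ENDO3, an endonuclease gene, averaged 53.7 CPM on day 5 and 3.36 CPM on day 0. GRP3S averaged 223 CPM on day 5 and 14.7 CPM on day 0, and the beta-glucosidase gene BGLU11 97.1 CPM on day 5 and 9.14 CPM on day 0. AT3G27025, without an assigned function, averaged 12.3 CPM on day 5 and 0.384 CPM on day 0, and AT4G35110, a phospholipase-like gene, 39.9 CPM on day 5 and 3.02 CPM on day 0. AT1G20070 averaged 34.0 CPM on day 5 and 2.91 CPM on day 0, but 97.9% of its locus is overlapped by a gene on the opposite strand, which averaged 0.101 CPM on day 5 and 0.0187 CPM on day 0.

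Day 5 replicate 1 weighed on many members. It was 2-fold or more below the mean of the other 3 day 5 samples in 21 members (14.0%, against 1.21% of 15286 genes) and 2-fold or more above it in 10 (6.67%, against 2.38%). It was the lowest day 5 sample in 86 members (57.3%, against 35.7% of genes) and the highest in 43 (28.7%, against 38.6% of genes). The rule used these values and kept day 5 above day 4 and under 2 times day 4, so nothing is read from the differences from all genes. With day 5 averaged over the other 3 samples, 502 genes met the rule, 128 of the 150 still met it, and 120 of them were in the new top 150. Of the 22 that no longer met it, 12 reached 2 times day 4 or more, among them AT1G54010, TSA1, DHAR1, OMT1, ELI3-2 and SWEET4. Another 8 did not exceed day 4, namely REM22, UGT73B5, PMT5, GID1B, CYP714A1, the dikinase gene PPDK, AT2G29340 and AT1G64710, and AT4G16545 and AT3G22060 averaged under 5 CPM. This setting was chosen after the data were seen.

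Replicate 4 was often the highest sample of members on the middle days. It was the highest for 75 members on day 2 (50%, against 18.7% of the 15286 genes), for 87 on day 3 (58.0%, against 26.3%) and for 71 on day 4 (47.3%, against 23.4%). The lowest sample was most often replicate 2 on day 2 (67 members, 44.7%, against 20.7% of genes), replicate 2 on day 3 (45 members, 30.0%, against 19.3%) and replicate 1 on day 4 (73 members, 48.7%, against 33.2%). These levels were also used in choosing the members, and the shares are a description.

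The pathways around the members were read from lists of genes, tested with edgeR's quasi-likelihood test over 19747 genes at a Benjamini-Hochberg adjusted p under 0.05. Between day 5 and day 0, 24.3% of all genes rose and 22.9% fell. In the floral organ identity list, 17 of 22 tested genes rose and 4 fell, and 5 are members, AP2, CRC, SEP1, SEP2 and SEP3. The petal and stamen gene AP3 rose to 174 ± 5.48 CPM on day 5, against 8.57 ± 2.3 CPM on day 0 (SD, n = 4 each; edgeR log2 fold change 4.36, SE 0.136, adjusted p = 9.16e-16). It was no member, since its day 4 mean (172 CPM) lay below day 3 (174 CPM). At the daily steps from day 1 to day 5, edgeR found rises in 4.21%, 1.49%, 0.694%, 0.962% and 7.75% of all genes and falls in 5.85%, 0.415%, 0.177%, 0.486% and 4.42%. The balance turned with the scaling: with library totals in place of TMM factors, 1441 genes rose and 778 fell at day 1 (831 and 1155 with TMM), and 1281 rose and 1618 fell at day 5 (1531 and 872 with TMM). Without replicate 2, 4 genes in place of 137 rose at day 3. In the organ identity list 14, 10, 2, 1 and 2 genes rose at these steps and 0, 0, 0, 1 and 2 fell.

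In the epidermis and cuticle list, 34 of 42 genes rose and 2 fell at day 5 against day 0 in edgeR. CER1, LACS2 and LTPG2 are members, and 12 of the list met the rule. At day 5 against day 4 alone, 29 of the 42 rose. Some genes outside the members stood far above day 4: the SHINE factor gene SHN1 had 37.8 CPM on day 5, 4.05 times its day 4 mean, and AT5G33370, the gene of cutin synthase CUS2, had 509 CPM, 5.96 times day 4. The members had ratios of day 5 over day 4 of 1.77 (CER1), 1.62 (LTPG2) and 1.48 (LACS2), which the rule kept under 2.

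All 20 tested genes of the jasmonate list rose between day 5 and day 0 in edgeR, and no gene of this list is a member. The synthesis genes AOC1 (24 CPM on day 5) and LOX3 (94.6 CPM) stood at 5.19 and 3.89 times their day 4 means, past the limit of the rule, and 17 of the 20 rose at day 5 against day 4. In the flavonoid list 11 of 16 rose and 0 fell, with OMT1 as member. In the gibberellin list 8 of 19 rose and 4 fell, with RGL2 and GID1B as members, and in the auxin list 11 of 29 rose and 10 fell, with IAA2 as member. These last shares of rises (8 of 19 and 11 of 29) stand beside a background of 24.3%.

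Lists of organ formation gave a member each. Of the carpel, style and ovule list 11 of 21 rose and 6 fell (CRC), of the organ growth list 13 of 30 rose and 10 fell (GRF8), and of the organ polarity list 9 of 17 rose and 3 fell (KAN3). Of the anther list 7 of 14 rose and 5 fell (TGA9), and of the trichome list 3 of 15 rose and 5 fell (TRY). In the trichome list the activator GL2 fell to 7.88 ± 0.877 CPM on day 5, against 21.1 ± 3.09 CPM on day 0 (edgeR log2 fold change -1.39, SE 0.117, adjusted p = 2.7e-09). No member came from the lists of meristem and boundary genes (1 of 18 rose, 14 fell), photosynthesis (0 of 27 rose, 26 fell), inflorescence and flowering time (5 of 22 rose, 13 fell), cell division (2 of 23 rose, 10 fell), vasculature and secondary wall (3 of 18 rose, 9 fell), cytokinin (8 of 26 rose, 9 fell), stomatal lineage (7 of 18 rose, 4 fell) or primary wall and expansion (15 of 30 rose, 4 fell). Of the handling and heat stress markers 10 of 13 rose and 1 fell.

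The members were spread over the genome much as other genes were: chromosome 1 held 29.3% of them against 26.4% of genes at 5 CPM or more on day 5, and chromosome 2 held 12% against 15.1%. Members of a family lay within 10 genes of each other in 4 places. These were AT1G02190 beside CER1, MT1A near MT1C, AT1G54010 near MVP1, and PBP1 near JAL34. Their coordinates in TAIR10.1 are chr1:415074-418027 and chr1:418416-422579 for AT1G02190 and CER1, and chr1:20158589-20160864 and chr1:20167597-20169684 for AT1G54010 and MVP1. The median transcript was 1736 bases long in members and 1825 in genes at 5 CPM or more.

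Some members cannot be separated from other genes with certainty. The MT1A transcript is contained at 100% identity in AT1G07590 and matches MT1B at 98.1% over 104 of its 138 bases and MT1C at 94.9%. AT3G55290 matches AT3G55310 at 93.6%. Another gene overlaps the locus of 33 members, on the opposite strand in 27, and covers 50% or more of it in 7. In 6 of these 7 (AT1G20070, COL1, MT1A, MAP65-8, AT4G39840 and MOT2) the other gene is in the table. The sources used here do not say whether counting used strand.

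Promoter letters were counted on both strands of the 300 bases before each gene, in 150 members and 15281 genes at 5 CPM or more on day 5. The G-box CACGTG was present in 12% of members and 8.27% of genes, and its core ACGT, which every G-box contains, in 61.3% of members and 48.4% of genes. The L1 box was present in 11.3% of members, including NAI1, AT1G54010, GRF8, ABS2, IDD7 and CYP714A1, and in 5.48% of genes. The auxin response element TGTCTC was present in 18.7% of members and 12.5% of genes, and the hexamer CACATG in 18.0% of members and 12.3% of genes. The site of TCP factors, GGNCCC, went the other way, with 5.33% of members and 9.67% of genes, as did the CArG box of MADS-domain proteins, with 1.33% of members and 3.09% of genes. Other motifs counted differed little: the ABRE ACGTGNC (12% of members, 10.8% of genes) and the W box TTGACC or TTGACT (31.3%, 31.1%). So did the LEAFY site CCANTG (24.7%, 25.9%) and TGACG (20.7%, 22.1%). TATAAA (59.3%, 50.4%), ACCNACC (11.3%, 7.4%) and the NAC core CACGCAA or CACGTAA (5.33%, 3.83%) had higher shares in members. Members' windows had a median GC content of 30.0%, against 31.7% in the genes, and no share was tested.

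Outside the members, the genes whose 6 day means followed the mean member profile most closely were AT4G24130 (Pearson r = 0.9981 of log2(CPM + 0.5)), AT4G31340 (0.998), the ERF-type gene Rap2.6L (0.9979), the dehydrin gene LTI30 (0.9976) and PYK10 (0.9972). These r values are over 6 day means and describe shape only. AT4G31340 met the rule but with a log2 ratio of 0.35, since it had 238 CPM on day 5 and 187 CPM on day 0. Rap2.6L (49.7 CPM on day 5, 20.7 CPM on day 4) and LTI30 (52.8 CPM on day 5, 19.8 CPM on day 4) exceeded the limit on the last step.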

How the data were processed

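Inflorescence poly(A) RNA was sequenced, 48 runs of 24 samples. The deposited values are expected counts per gene, given as whole numbers; per the submitters' processing notes, FastQC, Trim Galore, Salmon 0.12.0, DESeq2 and the TAIR10 build were used, with roles not given in the sources used here. Run pairs were summed and CPM taken on column totals. The members and gene lists were chosen with earlier results of these data known. Role groups, the settings without day 5 replicate 1 and on days 1 to 5 alone were made after seeing the data.

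Background and lists were tested with edgeR 4.0.16 (R 4.3.3; TMM, minimum count 10 and total 15 by day, 19747 genes, quasi-likelihood test, Benjamini-Hochberg), checked on simulated data. DESeq2 1.42.0, library totals, RLE factors, no filter, single batches and left-out replicates were alternatives. P-values measure the spread between 4 biological replicates a day, taken over all 6 days in 1 fit. Day 5 replicate 1 therefore enters every comparison: without it, 492 genes in place of 294 rose at day 2 against day 1. In 0 of 6 comparisons did all 4 same-numbered pairs deviate together with a correlation over 0.1, so numbers were not used as pairs. Named members are the 20 with the largest ratio, the 4 with the smallest range of log2 steps and the 4 with the largest share in 1 step, the most abundant, those in lists and those at the limits; genes added by role group were chosen after their values were seen. Sequences and gene models come from RefSeq's TAIR10.1 annotation, in which 22915 of 23069 identifiers and all 150 members matched; near copies were found with blastn 2.17.0. No value per sample column was left unused.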

Additional observations from a re-analysis of the deposited data

Results flagged for a closer look

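A sample far from the other 3 of its day was found in 14 of 168 sets of 4 samples (28 genes whose sample values are given, 6 days each). The limit used marks about 1 in 20 sets of independent values. These genes were partly chosen after their values were seen, and their sets share libraries, so nothing is read from the number found. Day 5 replicate 1 accounts for 5 of the 14. In that sample NAI1 had 49.3 CPM, against 23.4 to 24.6 CPM in the other day 5 samples, and PMT5 had 465 CPM, against 93.0 to 104 CPM. The same sample was low for TSA1 (145 CPM, against 370 to 417 CPM), for DHAR1 (681 CPM, against 1381 to 1531 CPM) and for BGLU18 (844 CPM, against 2853 to 3415 CPM). Its handling and heat stress marker sum was the highest of all samples, with 672 of 1054 CPM from TCH3. In that library WRKY40, WRKY33, STZ, ERF5 and ERF6 were also the highest of day 5, while HSP70, HSP17.6II, HSP101 and TCH2 were the lowest. The part of handling in these values was not tested.

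DHAR1 was high in day 3 replicate 4 (935 CPM, against 462 to 492 CPM), and AT4G16270 in day 2 replicate 4 (5.62 CPM, against 0.976 to 1.38 CPM). PMT5 was low in day 4 replicate 4 (83.4 CPM, against 116 to 123 CPM). AT5G13370 was high in day 3 replicate 1 (9.70 CPM, against 7.19 to 7.43 CPM). MSS1 was low in day 4 replicate 3 (15.6 CPM, against 19.9 to 20.6 CPM), and OMT1 in day 0 replicate 3 (44.2 CPM, against 68.0 to 71.7 CPM). SQE6 was high in day 1 replicate 3 (2.57 CPM, against 1.63 to 1.76 CPM) and in day 3 replicate 2 (8.60 CPM, against 5.91 to 6.15 CPM). NAC032 was low in day 0 replicate 2 (1.11 CPM, against 1.43 to 1.46 CPM).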

How the results depend on the processing

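The choice of the 150 moved most with the rule's own limits: 80 of the 150 stayed when the limit on the last step was dropped, and 86 stayed when each step had to be 1.1-fold or more, a condition that 106 genes met in place of 472. On days 1 to 5 alone 722 genes met the rule. Leaving out a replicate gave 357 to 655 genes meeting the rule and 104 to 116 shared members. With TMM-scaled CPM, 86.3% of steps went up in the left-out replicate. Counts of rises by edgeR were 831 at day 1 (1441 with library totals, 175 to 894 without a replicate), 294 at day 2 (442 with DESeq2, 193 in batch 1 alone, 76 to 208 without a replicate) and 137 at day 3 (246 with DESeq2, 75 in batch 1 alone, 4 to 150 without a replicate). They were 190 at day 4 (323 with DESeq2, 118 in batch 1 alone, 24 to 142 without a replicate) and 1531 at day 5 against day 4 (988 in batch 1 alone, 646 to 1181 without a replicate and 1729 without day 5 replicate 1). With library totals, rises and falls were 1441 and 778 at day 1, against 831 and 1155 with TMM, and 1281 and 1618 at day 5 against day 4, against 1531 and 872 with TMM. At day 5 against day 0 rises ran between 3881 and 4698 and falls between 3443 and 4767 without a replicate. The replicate block gave 4745 rises and 4491 falls at day 5 against day 0, and 791, 282, 161, 207 and 1562 rises at the daily steps. Same-numbered samples correlated between -0.326 and 0.51, and in 0 of 6 comparisons were all 4 pairs above 0.1, so the numbers were not taken as pairs. Between days 3 and 2 and between days 4 and 3 all 4 correlations were above 0 (0.096 to 0.38 and 0.062 to 0.51). Over the 6 comparisons a sample correlated best with its own number in 20 of 48 cases, which count samples more than once. Of single values, 1289 kept direction and side of the threshold, 8 lost the threshold, and 2 pollen markers near 0 reversed: the log2 fold change of RIC1 was -0.061 without replicate 2 (-0.061 to 0.187 without a replicate), and that of AGP6 was 0.266 without replicate 3 (-0.267 to 0.266). The cause of these shifts was not tested, and fewer samples or counts were used without a replicate or in batch 1.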
